A study of Mus musculus with 8 samples.

Results

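The genes described here encode the enzymes and the transporter that carry carbon from oxaloacetate to free glucose in gluconeogenesis. They are Pck1, Pck2, Eno1, Pgk1, Gapdh, Tpi1, Fbp1, G6pc, G6pc3 and Slc37a4, chosen by symbol and matched to their Ensembl identifiers, and they make up 10 of the 35275 genes counted in mouse liver. All 10 were among the 13168 genes with enough reads to be tested. Liver RNA came from 4 Pcx L-/- mice and 4 Pcx f/f littermates, which the sample labels call WT, with 1 sequencing library per mouse. All 8 mice were C57BL/6 males aged 9 weeks that carried Pcx alleles with a floxed exon 10 and had been fasted for 24 h. The Pcx L-/- mice also carried Albumin-Cre, which deletes the floxed exon in hepatocytes and leaves the other cells of the liver with an intact gene.

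Pyruvate carboxylase, the product of Pcx, makes oxaloacetate from pyruvate in mitochondria and so supplies the route at its start. Phosphoenolpyruvate carboxykinase then turns oxaloacetate into phosphoenolpyruvate, in the cytosol through Pck1 and in mitochondria through Pck2. Enolase, phosphoglycerate kinase, glyceraldehyde-3-phosphate dehydrogenase and triose phosphate isomerase run in reverse of glycolysis, and fructose bisphosphatase and glucose-6-phosphatase replace glycolytic steps that cannot be reversed. The last step takes place in the endoplasmic reticulum, where the Slc37a4 transporter brings in glucose 6-phosphate and G6pc or its widely expressed paralog G6pc3 releases glucose. In the fasted liver Pck1 and G6pc are known to be raised by glucagon through cyclic AMP, by glucocorticoids and by Foxo1, and Pck2 is known as a target of the stress-induced factor Atf4.

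Reads counted on genes ranged from 12016242 to 20023108 per library. Pcx itself, the check of the labels, had 14371 to 22059 normalized reads in the Pcx f/f mice and 556 to 758 in the Pcx L-/- mice, and its mean in Pcx L-/- liver was 3.60% of the control mean. A normalized read count here is a count divided by the library total times its TMM factor and scaled to a common library size. The TMM factors lay between 0.833 and 0.942 in the Pcx f/f libraries and between 0.970 and 1.16 in the Pcx L-/- libraries, so the choice of scaling moves every fold change in the same direction. Over the 13168 genes, the median log2 fold change was 0.28 with library totals alone and -0.01 with TMM. Pcx L-/- replicate 1, the one Pcx L-/- mouse with a number in the 500s, stood apart from the other Pcx L-/- mice. Its profile of all genes had a mean correlation of 0.972 with the Pcx f/f libraries and of 0.975 with the other Pcx L-/- libraries, whereas the other 3 Pcx L-/- libraries had 0.947 to 0.955 and 0.983 to 0.985. For part of the genes and lists, values are given with and without that mouse.

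Promoter sequences of the carboxykinase pair and the glucose-6-phosphatase pair are shown because the members of each pair moved in opposite directions in the comparison of genotypes. Each window runs from 250 bases before to 50 bases after the RefSeq start site on GRCm38.p6 and reads 5′ to 3′ on the strand of the gene. Capitals mark every match, on either strand, to the letters searched.
Pck1 promoter, chr2:173152823-173153122, + strand: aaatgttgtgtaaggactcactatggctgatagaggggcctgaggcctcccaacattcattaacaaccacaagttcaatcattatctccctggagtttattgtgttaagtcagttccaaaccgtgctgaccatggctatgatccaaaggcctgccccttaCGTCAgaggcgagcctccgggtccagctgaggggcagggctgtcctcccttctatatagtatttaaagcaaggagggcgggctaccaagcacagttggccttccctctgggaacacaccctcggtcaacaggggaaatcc
Pck2 promoter, chr14:55540016-55540315, + strand: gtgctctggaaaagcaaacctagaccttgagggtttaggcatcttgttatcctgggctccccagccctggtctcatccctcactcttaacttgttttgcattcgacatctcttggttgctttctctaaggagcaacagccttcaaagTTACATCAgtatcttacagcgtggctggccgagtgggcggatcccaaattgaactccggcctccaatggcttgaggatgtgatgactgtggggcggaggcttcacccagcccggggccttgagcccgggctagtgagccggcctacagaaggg
G6pc promoter, chr11:101367466-101367765, + strand: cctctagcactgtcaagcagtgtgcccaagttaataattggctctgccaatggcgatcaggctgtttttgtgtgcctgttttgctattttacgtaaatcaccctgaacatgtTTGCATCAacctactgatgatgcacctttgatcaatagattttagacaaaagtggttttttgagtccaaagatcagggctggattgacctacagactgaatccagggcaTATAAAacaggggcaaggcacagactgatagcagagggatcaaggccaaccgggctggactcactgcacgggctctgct
G6pc3 promoter, chr11:102189449-102189748, + strand: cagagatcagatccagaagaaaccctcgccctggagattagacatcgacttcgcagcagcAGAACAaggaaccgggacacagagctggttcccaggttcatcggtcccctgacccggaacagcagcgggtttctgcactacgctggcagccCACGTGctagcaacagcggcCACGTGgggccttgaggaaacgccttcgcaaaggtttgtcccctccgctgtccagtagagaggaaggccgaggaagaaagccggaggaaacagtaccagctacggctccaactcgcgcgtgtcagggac

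The letters searched were TGACGTCA, the cyclic AMP response element, its core TGACG, TGATGNAA for composite elements of C/EBP and ATF factors, TGTTTAC for forkhead factors, TGTTCT for the core of the glucocorticoid response element, ACGTG for the hypoxia element and TATAAA for the TATA box. The core is contained in the full cyclic AMP response element, and ACGTG read on both strands can overlap itself. In the Pck1 window the core of the cyclic AMP response element was found once, on the reverse strand, with its first base at -90 from the start. The Pck2 window held the C/EBP and ATF letters at -103. In G6pc the same letters stood at -138 and a TATA box at -29. The G6pc3 window held the hypoxia letters in overlapping pairs on both strands at -99 and -98 and again at -79 and -78, and the glucocorticoid core at -190. Of 32851 promoter windows of this length, 20.8% held the core of the cyclic AMP response element, 3.97% the C/EBP and ATF letters, 13.6% the TATA box, 19.6% the hypoxia letters and 19.0% the glucocorticoid core. Of the 10100 tested genes with such a window, 34.8% held the core of the cyclic AMP response element in any window and 28.9% the hypoxia letters. The shares of these genes were 2.71% for the C/EBP and ATF letters, 9.19% for the TATA box and 15.3% for the glucocorticoid core. The full element of 8 letters, present in 1.79% of windows, and the forkhead letters, present in 3.65%, were found in none of the 14 windows of the 10 genes. RefSeq places the start of G6pc 155 bases, that of G6pc3 79 bases and that of Pck1 25 bases downstream of the GENCODE M21 start, while for Pck2 both annotations have the same base. A match of letters is a description of the window and does not show that a factor binds there.

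The genes of the route spanned a wide range of levels. On the scale of FPKM, which divides counts by the length of the gene and the size of the library, Pck1 was the most abundant in Pcx f/f liver at 2196 ± 312 (SD, n = 4). Gapdh followed at 756 ± 99.5 and Fbp1 at 713 ± 99.0, and their ranges over mice overlapped. Tpi1 (289 ± 15.4), Eno1 (267 ± 48.2), G6pc (167 ± 66.1), Pgk1 (154 ± 4.42) and Slc37a4 (149 ± 11.3) came next, each overlapping its neighbour in this order. The paralogs lay far below, with G6pc3 at 4.18 ± 0.835 and Pck2 at 1.19 ± 0.262, and neither range overlapped that of its neighbours. Pcx L-/- liver had the same order except that Pgk1, at 177 ± 6.95 FPKM, stood above G6pc at 112 ± 30.7. Together the 10 genes took 0.860 to 1.11% of all reads in the Pcx f/f libraries and 0.710 to 0.878% in the Pcx L-/- libraries, of which Pck1 alone took 0.484 to 0.685% and 0.385 to 0.487%.

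The comparison of genotypes asks how the route below oxaloacetate is expressed in a fasted liver that lacks the enzyme supplying it. Of the 10 genes, 4 were lower in Pcx L-/- liver (Pck1, Fbp1, G6pc and Slc37a4), 2 were higher (Pck2 and G6pc3) and 4 did not pass the test (Eno1, Pgk1, Gapdh and Tpi1). Over all 13168 genes tested, 13.5% were called lower and 14.1% higher by the edgeR quasi-likelihood test at a Benjamini-Hochberg adjusted p under 0.05. The 10 genes had a median log2 fold change of -0.49, beside -0.01 over the 13168, and 8 of the 10 were fitted below 0, or 7 with library totals as the scale, where Pgk1 was above 0. For 5 of the 10 (Pck1, Pck2, Fbp1, G6pc3 and Slc37a4) the normalized counts of the genotypes did not overlap, which was so for 27.6% of all genes tested. In bulk tissue, fewer cells of a type and less RNA per cell cannot be told apart.

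**Figure D1:**
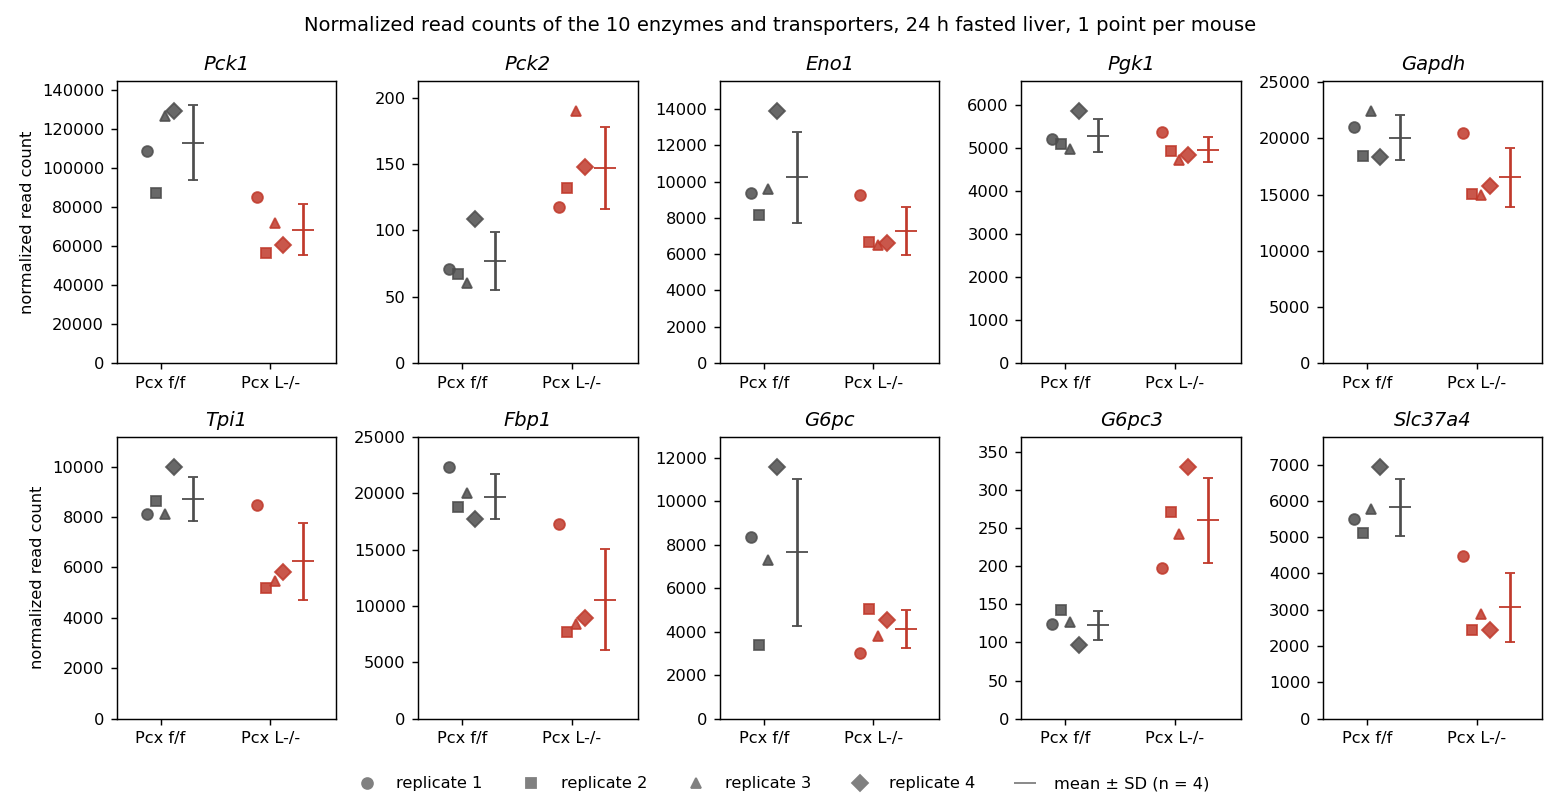
Normalized read counts (vertical axes from 0) of the 10 genes in each mouse of the Pcx f/f (grey) and Pcx L-/- (red) groups, with a symbol for each replicate and the mean ± SD of 4 mice at the side. Pck1, Fbp1 and Slc37a4 were lower in all Pcx L-/- mice than in any Pcx f/f mouse, and Pck2 and G6pc3 were higher. For every gene except G6pc, replicate 1 was the Pcx L-/- mouse nearest to the control mean.

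Pck1 (ENSMUSG00000027513, chr2:173153048-173159273 on GRCm38) had 108532, 87267, 126240 and 128915 normalized reads in Pcx f/f replicates 1 to 4, and 85147, 56218, 71582 and 60230 in the Pcx L-/- mice. Every Pcx L-/- mouse lay below every control, although Pcx L-/- replicate 1 and control replicate 2 were close to each other. The Pcx L-/- mean was 60.6% of the control mean, a log2 fold change of -0.72 ± 0.20 (SE, n = 4 and 4) with an edgeR adjusted p of 0.0195. Leaving out control replicate 3 or Pcx L-/- replicate 2, 3 or 4 took the adjusted p of edgeR to between 0.0505 and 0.0779. With library totals the log2 fold change was -0.44 (edgeR adjusted p = 0.0250), and limma on log2(FPKM + 1) and log2(FPKM + 0.1) gave -0.44 as well and lost the call (limma adjusted p = 0.0515 and 0.0537). Without Pcx L-/- replicate 1 the log2 fold change was -0.85 (edgeR adjusted p = 0.00203).

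Pck2 (ENSMUSG00000040618, chr14:55540266-55551242) was the least abundant of the 10 and moved the other way. Control replicates 1 to 4 had 71.0, 67.2, 60.2 and 109 normalized reads and Pcx L-/- replicates 1 to 4 had 118, 132, 190 and 148. The groups did not overlap, with control replicate 4 and Pcx L-/- replicate 1 closest to each other. Its mean was 1.91 times that of the controls (log2 fold change 0.96 ± 0.22, edgeR adjusted p = 0.00881), and the call was the same in all 18 other settings. The raw counts behind these values were between 56 and 244 reads per library.

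Within each mouse the FPKM of Pck1 exceeded that of Pck2 by 1479 to 2614 times in Pcx f/f liver and by 470 to 900 times in Pcx L-/- liver. Pck2 thus made up 0.0550% ± 0.0128 (SD, n = 4) of the summed FPKM of the pair in the controls and 0.177% ± 0.0451 in Pcx L-/- liver. The mean log2 ratio of Pck2 to Pck1 was higher by 1.68, or 3.20-fold, in Pcx L-/- liver (exact permutation test, two-sided, p = 0.0286, Benjamini-Hochberg adjusted p over 3 ratios = 0.0429). Every Pcx L-/- mouse lay above every control, the closest being Pcx L-/- replicate 1 at a ratio of 0.00111 and control replicate 4 at 0.000676. A p of 0.0286 is the smallest that 4 mice against 4 allow. Pck1 and Pck2 were each already separated between the genotypes, in opposite directions, so their ratio had to separate as well. This p was fixed by those values and is no further support. A ratio within a library does not depend on the scaling between libraries, and it shows an unequal change of the pair rather than the change of either gene.

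**Figure D2:**
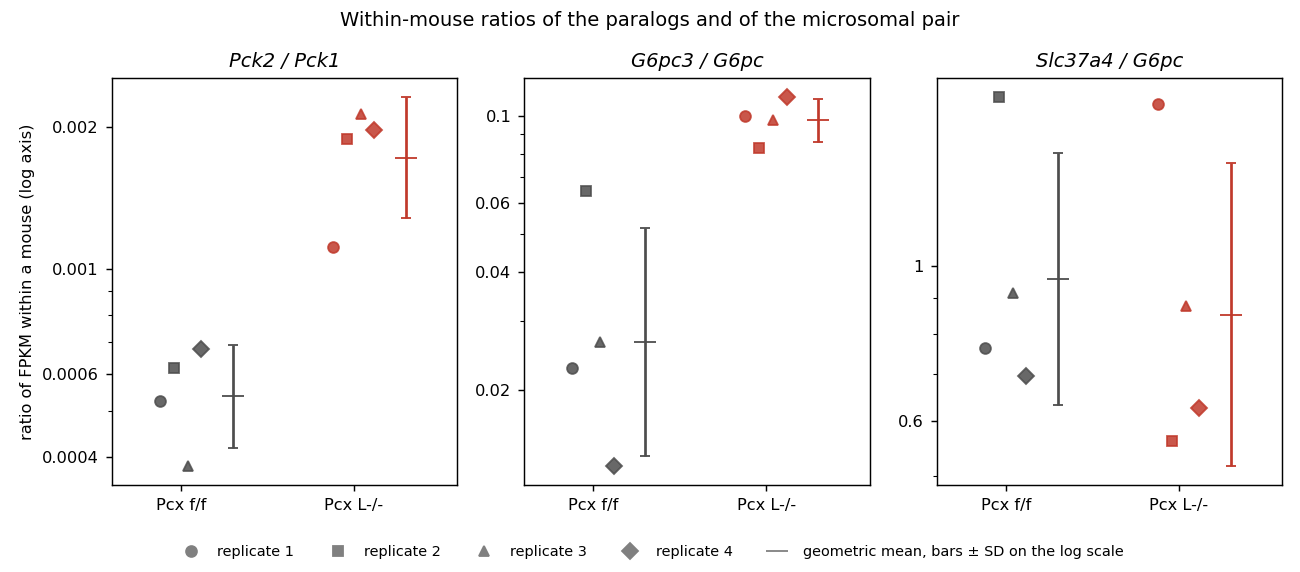
Ratio of FPKM of 2 genes within each mouse (log axes) for Pck2 to Pck1, G6pc3 to G6pc and Slc37a4 to G6pc, with the geometric mean and bars of ± SD on the log scale. The first pair of ratios did not overlap between genotypes, and the ratio of Slc37a4 to G6pc did, from 0.694 to 1.75 in Pcx f/f liver and from 0.562 to 1.71 in Pcx L-/- liver.

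The enzymes of the reversible middle of the route were lower on average and did not pass the test, and 1 of them, Pgk1, was higher with library totals as the scale. Eno1 (ENSMUSG00000063524, chr4:150236721-150248879), which hydrates phosphoenolpyruvate in this direction, ranged from 8147 to 13881 normalized reads in the controls. In Pcx L-/- replicates 2 to 4 it ranged from 6518 to 6669, below every control, and replicate 1 had 9250, within the control range. Its log2 fold change was -0.50 ± 0.19 (edgeR adjusted p = 0.0714). Tpi1 (ENSMUSG00000023456, chr6:124810586-124814296), which interconverts the triose phosphates, showed the same layout, with 8117 to 9993 normalized reads in the controls, 5175 to 5810 in Pcx L-/- replicates 2 to 4 and 8492 in replicate 1. The log2 fold change of Tpi1 was -0.48 ± 0.17 (edgeR adjusted p = 0.0552). Both genes passed the threshold with the DESeq2 Wald test, at adjusted p of 0.0352 for Eno1 and 0.0206 for Tpi1. With library totals as the scale both stood at -0.21 (edgeR adjusted p = 0.256 and 0.201).

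Gapdh (ENSMUSG00000057666, chr6:125161715-125166467), the dehydrogenase of the triose step and a common reference gene, had 18317 to 22414 normalized reads in the controls. Pcx L-/- replicates 2 to 4 had 14987 to 15729 and replicate 1 had 20450, a log2 fold change of -0.28 ± 0.15 (edgeR adjusted p = 0.199). Without Pcx L-/- replicate 1, the edgeR adjusted p was 0.0126 for Eno1, 0.00117 for Tpi1 and 0.0215 for Gapdh. The number of the 10 genes called lower was then 6, since Eno1, Tpi1 and Gapdh entered and G6pc left. Calls rose over all genes as well, with 2370 of 13330 lower without that mouse beside 1777 of 13168 with all mice. With library totals as the scale, Gapdh had a log2 fold change of -0.01, and its mean FPKM was 756 in Pcx f/f and 752 in Pcx L-/- liver.

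Pgk1 (ENSMUSG00000062070, chrX:106187100-106203699), which forms 1,3-bisphosphoglycerate in this direction, had the smallest fold change of the 10 under TMM scaling, while with library totals Gapdh had the smallest (-0.01). It had 4979 to 5858 normalized reads in the controls and 4723 to 5381 in Pcx L-/- liver, ranges that overlapped, with a log2 fold change of -0.09 ± 0.11 (edgeR adjusted p = 0.588). Its sign depended on the scaling. With library totals alone the log2 fold change was 0.19 (edgeR adjusted p = 0.155), and on FPKM all 4 Pcx L-/- mice, at 168 to 185, lay above the controls at 148 to 157. The shift of 0.28 in the median of all genes under that scaling was larger than this fold change.

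Fbp1 (ENSMUSG00000069805, chr13:62864753-62888282) encodes the liver fructose bisphosphatase that opposes phosphofructokinase. Its normalized reads were 22355, 18743, 19990 and 17764 in control replicates 1 to 4 and 17286, 7653, 8395 and 8939 in Pcx L-/- replicates 1 to 4. The groups did not overlap, but Pcx L-/- replicate 1 lay just under the lowest control while the other 3 mice were near one another and far below. The mean fell to 53.6% of the controls, with a log2 fold change of -0.90 ± 0.24 (edgeR adjusted p = 0.0190). Without Pcx L-/- replicate 1 it was -1.24 (edgeR adjusted p = 4.23e-05), and without control replicate 1 or Pcx L-/- replicate 2, 3 or 4 the edgeR adjusted p was 0.0531 to 0.0677.

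G6pc (ENSMUSG00000078650, chr11:101367561-101377903), the catalytic subunit of liver glucose-6-phosphatase, varied most among the controls. Control replicates 1 to 4 had 8334, 3388, 7310 and 11581 normalized reads, and Pcx L-/- replicates 1 to 4 had 3030, 5053, 3810 and 4542. Control replicate 2 lay inside the Pcx L-/- range, and the other 3 controls lay above every Pcx L-/- mouse. The log2 fold change was -0.90 ± 0.30 with an edgeR adjusted p of 0.0477. That call was lost in 11 of 18 other settings, among them scaling by library totals (edgeR adjusted p = 0.136) and leaving out any mouse other than control replicate 2, with edgeR adjusted p of 0.0635 to 0.125. Without control replicate 2 the log2 fold change was -1.14 (edgeR adjusted p = 0.00568).

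G6pc3 (ENSMUSG00000034793, chr11:102189620-102194081), the paralog expressed in most tissues, had 124, 142, 127 and 96.7 normalized reads in the controls and 197, 272, 242 and 330 in Pcx L-/- replicates 1 to 4. No control reached the Pcx L-/- values, of which replicate 1 was the lowest. The mean was 2.13 times that of the controls (log2 fold change 1.08 ± 0.18, edgeR adjusted p = 0.00197), and the call was made in all 18 other settings. Even so, G6pc stood 15.6 to 78.0 times above G6pc3 in FPKM within the control mice and 8.96 to 12.1 times above it within the Pcx L-/- mice. G6pc3 made up 3.03% ± 2.08 (SD, n = 4) of the summed FPKM of the pair in the controls and 8.91% ± 0.995 in Pcx L-/- liver. The mean log2 ratio of G6pc3 to G6pc was higher by 1.87, or 3.66-fold, in Pcx L-/- liver (exact permutation test, two-sided, p = 0.0286, adjusted over 3 ratios 0.0429). Every Pcx L-/- mouse lay above every control, the closest being Pcx L-/- replicate 2 at a ratio of 0.0825 and control replicate 2 at 0.0643.

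Slc37a4 (ENSMUSG00000032114, chr9:44396852-44402968) encodes the transporter that feeds glucose 6-phosphate to both phosphatases. It had 5492, 5122, 5763 and 6938 normalized reads in control replicates 1 to 4, and 4468, 2449, 2882 and 2448 in Pcx L-/- replicates 1 to 4. No Pcx L-/- mouse reached the controls, and replicate 1 was again the highest of its group. The mean was 52.5% of the controls, with a log2 fold change of -0.93 ± 0.20 (edgeR adjusted p = 0.00674), and the call was made in all 18 other settings. Without Pcx L-/- replicate 1 the log2 fold change was -1.17 (edgeR adjusted p = 8.24e-05). The log2 ratio of Slc37a4 to G6pc differed by -0.17 between genotypes with wide overlap (exact permutation test, two-sided, p = 0.629), and without control replicate 2 or Pcx L-/- replicate 2 the difference was 0.12 or 0.03.

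**Figure D3:**
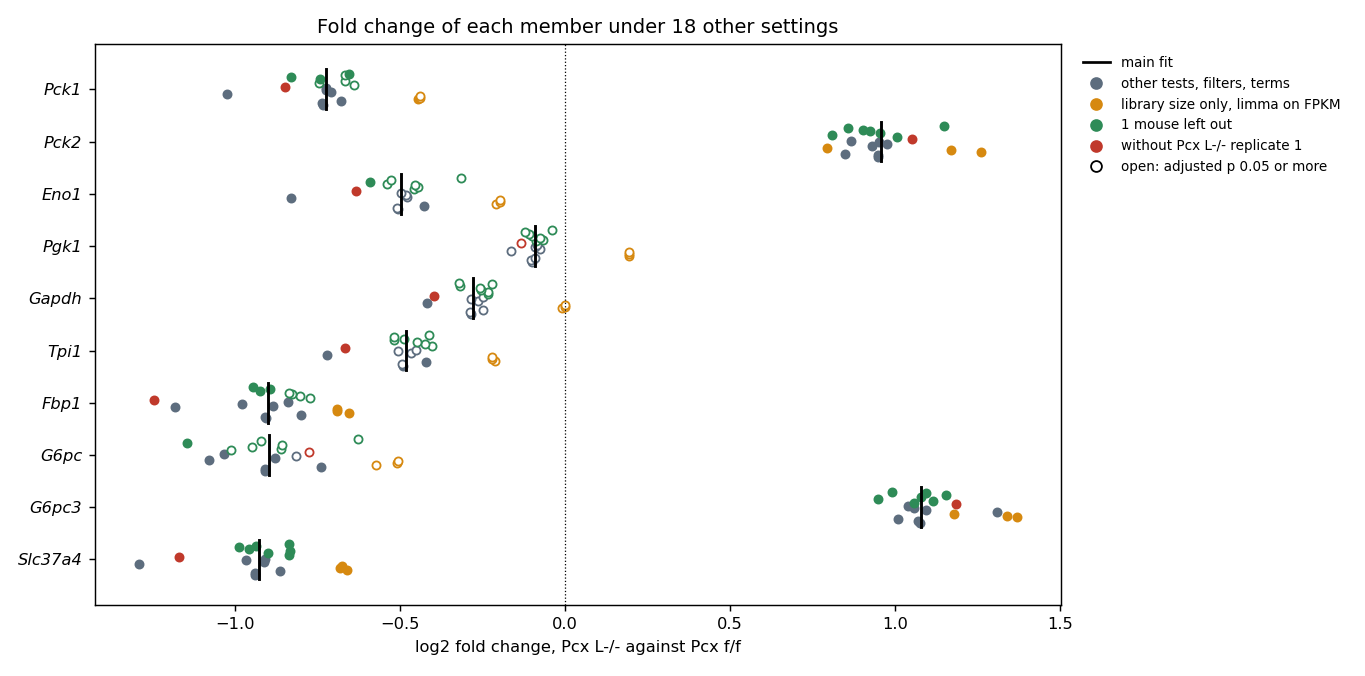
Log2 fold change of each gene (horizontal axis) under 18 other settings of scaling, filter, test, covariate or mice, with the reported value as a black line, filled points at an adjusted p under 0.05 and open points above it. Pck2, G6pc3 and Slc37a4 were called in each setting, and Pgk1 lay on the other side of 0 in the 3 settings that scale by library totals.

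The labels give mouse numbers in the 500s for 2 controls and 1 Pcx L-/- mouse and in the 800s for 2 controls and 3 Pcx L-/- mice, and what the numbers stand for is not stated. Among the mice in the 800s, a comparison chosen after the data were seen, 7 of the 10 genes were called lower and 2 higher, with Pgk1 the one left at a log2 fold change of -0.16 (edgeR adjusted p = 0.373). Over all 13471 genes tested in that comparison, 2129 were called lower and 1887 higher. The mice in the 500s hold a single Pcx L-/- mouse, so no comparison was made within them. Among the same 800s mice, 7 of 10 general hepatocyte markers and 10 of 12 periportal markers were lower, and 5 of 10 macrophage and 2 of 10 stellate markers were higher, and their part in the values of the 10 genes was not tested. With the series as a covariate, the 4 lower and 2 higher calls were made again.

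Other genes of the same steps moved in both directions, and 2 of the 11 tested were called higher and 2 lower, with a median log2 fold change of 0.16. Aldoa, the aldolase of muscle and most tissues, was higher (0.81 ± 0.15, edgeR adjusted p = 0.00318). Eno3, the muscle form of enolase, was higher as well (0.86 ± 0.21, edgeR adjusted p = 0.0129). Aldoc, the aldolase known from brain, was lower (-1.81 ± 0.29, edgeR adjusted p = 0.00177). Slc2a2, the glucose transporter of the hepatocyte membrane through which glucose leaves the cell, was lower (-1.01 ± 0.21, edgeR adjusted p = 0.00653). The isozymes Eno1b, Eno2, Pgk2 and G6pc2 had at most 12 reads in any library and were not tested. Without Pcx L-/- replicate 1 the list had 2 higher and 3 lower and its median was -0.18. With library totals as the scale it had 3 higher and 2 lower.

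**Figure D4:**
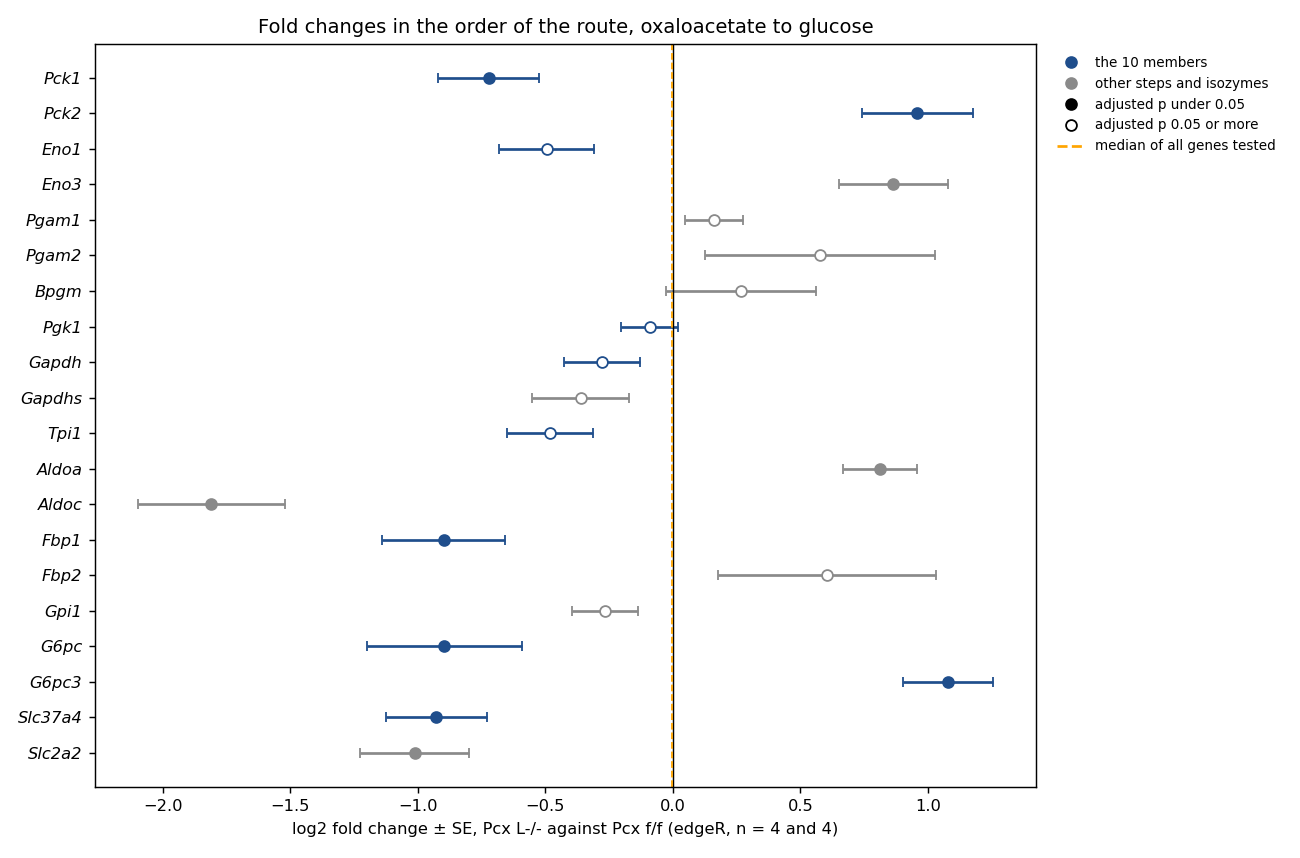
Log2 fold change ± SE (horizontal axis, edgeR, 4 mice against 4) of the 10 genes (blue) and of 10 other genes of the same steps (grey), from oxaloacetate at the top to glucose export at the bottom. Filled points passed an adjusted p under 0.05, and the dashed line marks the overall median at -0.01. Fbp1, G6pc, Slc37a4 and Slc2a2 were filled at -0.90, -0.90, -0.93 and -1.01, while Pck2 and G6pc3 stood at 0.96 and 1.08.

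Enzymes and carriers that bring carbon to the route, 18 genes, held 5 lower and 1 higher, with a median of -0.34. Gpd1, the cytosolic glycerol 3-phosphate dehydrogenase, was lower (-0.93 ± 0.18, edgeR adjusted p = 0.00435), as was Slc25a13, the aspartate and glutamate carrier of liver mitochondria (-0.70 ± 0.17, edgeR adjusted p = 0.0125). The malate dehydrogenases parted. The cytosolic Mdh1 was lower (-0.62 ± 0.18, edgeR adjusted p = 0.0242) and the mitochondrial Mdh2 higher (0.52 ± 0.11, edgeR adjusted p = 0.00727). The glycerol channel Aqp9 (-0.52 ± 0.16, edgeR adjusted p = 0.0352) and the citrate carrier Slc25a1 (-0.37 ± 0.12, edgeR adjusted p = 0.0460) passed narrowly and lost their calls in 11 and 13 of 18 other settings. Mdh1 lost its call in 8 of them. Without Pcx L-/- replicate 1, 11 of the 18 genes were called lower. Only 2 were without Pcx L-/- replicate 2, 3 or 4, or without control replicate 1 or 3. With library totals as the scale the list had 2 lower and 3 higher with a median of -0.07. All 13168 genes then had 870 lower and 3915 higher, with a median of 0.28.

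The glycolytic enzymes that oppose the route, 14 genes, held 3 lower and 1 higher, with a median of -0.08. Pklr, the liver pyruvate kinase that returns phosphoenolpyruvate to pyruvate, was higher (0.84 ± 0.25, edgeR adjusted p = 0.0285), and this call was lost in 7 of 18 other settings, 6 of them with 1 mouse left out (edgeR adjusted p up to 0.0891). The phosphofructokinase subunits Pfkm (-1.12 ± 0.19, edgeR adjusted p = 0.00218) and Pfkl (-0.50 ± 0.13, edgeR adjusted p = 0.0183) were lower. Pfkfb3, which makes the activator fructose 2,6-bisphosphate, was lower by -1.09 ± 0.36 on the log2 scale (edgeR adjusted p = 0.0443), a call lost in 12 of 18 other settings. With single mice left out the list had 1 to 4 lower, 1 of them without Pcx L-/- replicate 3 or 4. With library totals it had 1 lower and 2 higher, and its median was 0.20.

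Among 20 regulators of gluconeogenic genes, 6 were lower and 1 higher, with a median of -0.37. Nr1d1, the clock repressor Rev-erb alpha, was the one called higher (1.13 ± 0.21, edgeR adjusted p = 0.00348). Sik1, a kinase that restrains the cyclic AMP response (-1.02 ± 0.29, edgeR adjusted p = 0.0253), Ppara, the receptor that drives fasting fat oxidation (-0.52 ± 0.13, edgeR adjusted p = 0.0137), and Insr, the insulin receptor (-0.53 ± 0.16, edgeR adjusted p = 0.0310), were lower. Nr4a1 (1.05 ± 0.46, edgeR adjusted p = 0.119) and Foxa2 (0.42 ± 0.19, edgeR adjusted p = 0.129) did not pass the test. The number of lower calls moved with single mice, from 9 without Pcx L-/- replicate 1 to 0 without Pcx L-/- replicate 4 by edgeR, where 6 were lower at an unadjusted p under 0.05. They depend on the scaling as well, with 1 lower and 3 higher by edgeR on library totals (median -0.09), and limma on log2(FPKM + 1) called 2 higher and none lower. Sik1, Insr and Ppara lost their calls in 6, 8 and 4 of 18 other settings.

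Other known targets of cyclic AMP, glucocorticoids or Foxo1, 13 genes, held 3 higher and 4 lower, with a median of -0.43, and so went in no single direction. Lower were Lpin1, a coactivator and lipid phosphatase (-1.53 ± 0.43, edgeR adjusted p = 0.0234), Tdo2, the tryptophan dioxygenase (-1.30 ± 0.26, edgeR adjusted p = 0.00497), and Fkbp5, a chaperone partner of the glucocorticoid receptor (-0.91 ± 0.24, edgeR adjusted p = 0.0163). Higher were the metallothioneins Mt2 (1.48 ± 0.20, edgeR adjusted p = 0.000971) and Mt1 (1.21 ± 0.30, edgeR adjusted p = 0.0130) and Pdk4, a kinase that shuts off pyruvate dehydrogenase (1.31 ± 0.45, edgeR adjusted p = 0.0496). The call of Pdk4 was lost in 13 of 18 other settings, that of Lpin1 in 6 and that of Fkbp5 in 5. With single mice left out, 2 to 6 genes of the list were lower, and 2 were without Pcx L-/- replicate 3 or 4 or control replicate 3. With library totals as the scale 4 were higher and 4 lower (median -0.14), and limma on log2(FPKM + 1) called 3 higher and 1 lower.

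Known Atf4 targets other than Pck2, of which 33 were tested, were called higher in 24 cases and lower in 1, with a median of 1.11. The highest were Nupr1, a stress-induced chromatin protein (7.19 ± 0.64, edgeR adjusted p = 0.000159), Psat1, an enzyme of serine synthesis (4.48 ± 0.31, edgeR adjusted p = 2.93e-05), and Fgf21, a hormone secreted by the stressed or fasted liver (4.23 ± 0.52, edgeR adjusted p = 0.000735). Shmt2, a mitochondrial enzyme of folate metabolism, was lower (-0.57 ± 0.16, edgeR adjusted p = 0.0243), a call lost in 8 of 18 other settings. Leaving out single mice gave 22 to 24 higher. Cth (-0.44 ± 0.26, edgeR adjusted p = 0.241) and Chac1 (-0.43 ± 0.50, edgeR adjusted p = 0.565) did not pass the test. The log2 fold change of Pck2, 0.96, was below the median of this list.

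Hypoxia-inducible genes held 3 lower and 1 higher among 15 tested, with a median of -0.21, and 3 lower and 2 higher with a median of 0.09 with library totals as the scale. Without Pcx L-/- replicate 1 they held 3 lower and 2 higher, with a median of -0.08. The mitophagy receptors Bnip3 (-1.21 ± 0.27, edgeR adjusted p = 0.00814) and Bnip3l (-0.71 ± 0.15, edgeR adjusted p = 0.00627) and the kinase Pdk1 (-0.92 ± 0.13, edgeR adjusted p = 0.00109) were lower, and Egln3, a prolyl hydroxylase, was higher (1.20 ± 0.16, edgeR adjusted p = 0.000843).

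**Figure D5:**
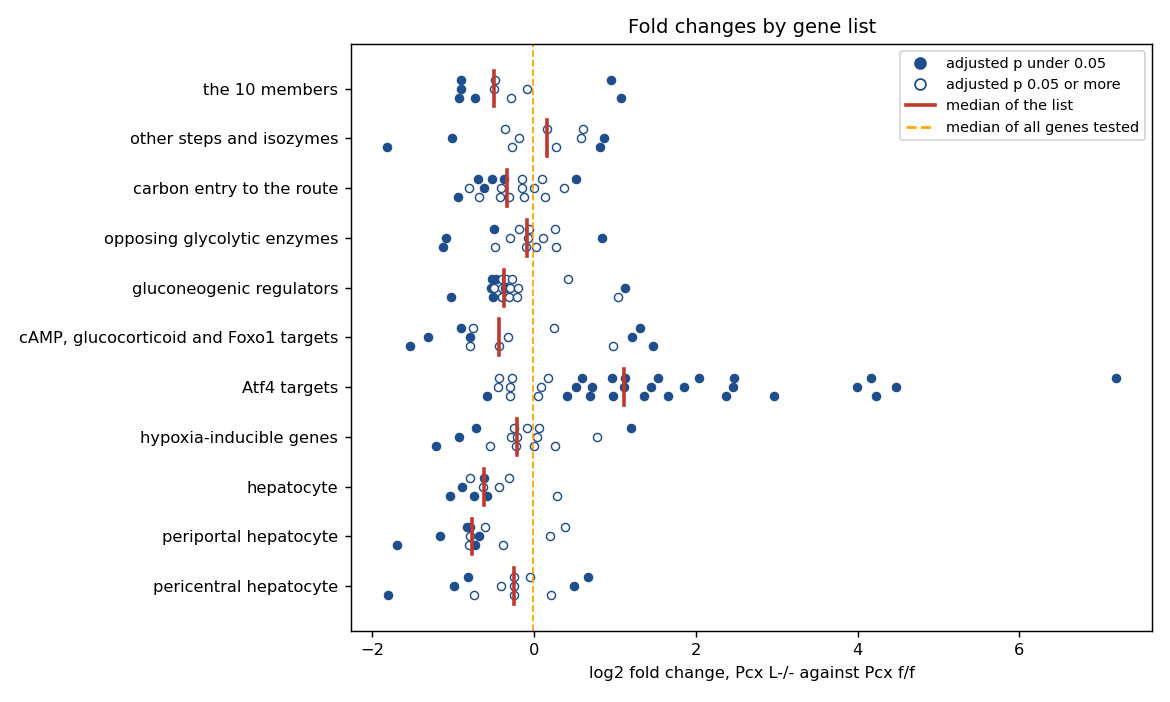
Log2 fold change of each gene tested (horizontal axis), by gene list, with filled points at an adjusted p under 0.05, open points above it, the list median in red and the overall median as a dashed line. The median of the 10 genes was -0.49, that of known Atf4 targets 1.11 and those of general and periportal hepatocyte markers -0.62 and -0.76.

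Some markers of hepatocytes were also lower, and their part in the lower values of Pck1, Fbp1, G6pc and Slc37a4 was not tested. Of 10 general hepatocyte markers 5 were called lower with TMM scaling and none higher, with a median log2 fold change of -0.62 and a summed FPKM of 50945 to 55765 in Pcx f/f and 40403 to 49089 in Pcx L-/- liver. Albumin transcripts took 6.29 to 7.0% of reads in the Pcx f/f libraries and 4.73 to 5.82% in the Pcx L-/- libraries. Of 12 markers of periportal hepatocytes, the zone in which gluconeogenesis is known to be strongest, 6 were lower with TMM scaling and none higher, with a median of -0.76, and their summed FPKM overlapped, at 5729 to 8328 and 5173 to 7897. With library totals as the scale, edgeR called 3 of the general markers lower and 1 higher (median -0.34), and 4 of the periportal markers lower and 2 higher (median -0.48). Without Pcx L-/- replicate 1, edgeR called 8 of the general and 10 of the periportal markers lower, and without Pcx L-/- replicate 2 it called 1 and 3. Of 12 pericentral markers 3 were lower and 2 higher, with a median of -0.25. This was 5 lower and 2 higher with a median of -0.45 without Pcx L-/- replicate 1, 1 lower without replicate 3 or 4, and 2 lower and 2 higher with library totals. In each of these lists Pcx L-/- replicate 1 had the highest summed FPKM of its group, at 49089, 7897 and 6949. Reads of the mitochondrial genome made up 4.97 to 5.56% in the controls and 4.34 to 5.01% in Pcx L-/- liver.

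Markers of the other cell types were mostly not called. Macrophages had 1 of 10 called higher, and for endothelial and stellate cells edgeR, DESeq2 and limma each called 0 of 10, with 2 and 0 at an unadjusted p under 0.05 by edgeR. Among the mice in the 800s, edgeR called 5 macrophage and 2 stellate markers higher, and 1 endothelial marker higher and 1 lower. With the series of mouse numbers as a covariate it called 1 endothelial and 1 stellate marker lower and no macrophage marker. The macrophage, endothelial and stellate lists had medians of 0.09, -0.15 and -0.06. Of 5 red blood cell genes tested 0 were called by edgeR, DESeq2 or limma and 0 had an unadjusted p under 0.05 by edgeR, with a median of 1.29 that was -0.08 without Pcx L-/- replicate 1. That mouse had a summed FPKM of 5338 over these genes, beside 559 to 1412 in the other Pcx L-/- mice and 317 to 1231 in the controls. The part of blood in the values of Fbp1, Eno1, Gapdh and Tpi1 in that mouse was not tested. Cholangiocyte markers had 1 of 6 called lower (median -0.45), and the marker called is also among the periportal markers called lower. Some genes stand in more than 1 list, so the lists are not separate from one another. Adipocyte markers had 1 of 2 lower and the 1 muscle marker tested was not called (0.40). The kidney tubule markers had at most 17 reads in any library and were not tested. Kidney is the other organ known for expressing Pck1, Fbp1 and G6pc.

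Across the 8 mice, the level of Pck1 ran closely with that of Slc37a4 (Pearson r of log2 CPM, the count per library size, 0.961) and against that of G6pc3 (-0.949). These r span both genotypes and the same libraries and are given as a description. After the genotype means were taken out, r was 0.855 for Pck1 and Slc37a4, -0.813 for Pck1 and G6pc3, and 0.901 for Fbp1 and Gapdh. G6pc was the exception among the lower genes, with r after the same step of 0.289 to Pck1, -0.327 to Fbp1 and -0.0205 to Slc37a4. The genes of all those tested with the pattern most like Pck1 were Mn1 (r = 0.993), Mast3 (0.988) and Jup (0.987). For Fbp1 they were Mmp19 (0.996), Ccs (0.995) and Haao (0.994), for G6pc Csnk1d (0.977), Nipal1 (0.975) and Gga1 (0.968), and for Pck2 Pdss2 (0.985), Trmt61b (0.980) and Rpl35 (0.976). These r are the highest among all genes tested, over only 8 mice, and are a description as well. Between genotypes Csnk1d, Gga1, Pdss2 and Trmt61b did not pass the test (edgeR adjusted p = 0.240, 0.366, 0.0892 and 0.304), while the other genes named for likeness did.

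Reads of some members can be split with copies of the gene. Transcripts of 92 other genes aligned to Gapdh at 95% identity or more over at least 300 bases, of which 84 were in the count table with 527 reads in all libraries together, 0.355% of those on Gapdh. For Eno1 there were 4 such genes with 122 reads in all, including Eno1b, for Pgk1 there were 4 with 29 reads, and for Tpi1 there was 1, which is not in the table. Pck1, Pck2, Fbp1, G6pc, G6pc3 and Slc37a4 had 0. Exons of Gapdh, Tpi1 and Pck2 share 68, 34 and 53 bases with genes on the other strand, Iffo1, Spsb2 and Gm10876, and reads there cannot be assigned without knowing whether strand was used in counting.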

How the data were processed

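Total RNA of flash-frozen liver was extracted and sequenced from 4 Pcx L-/- and 4 Pcx f/f mice. The authors deposited raw read counts per Ensembl gene on mm10 and FPKM values. Each FPKM was compared with the count over the library total and 1 length per gene, a length taken from the FPKM values themselves. All 142384 values above 0 matched within a relative tolerance of 1e-06. A gene with reads in 1 library matches by construction, so the check covers only whether the length is constant across libraries. The submitters' processing notes name STAR 2.5, HTSeq 0.6.1 and DESeq2. No source used here states the use of strand or the annotation release. GENCODE M21 named 34490 of 35275 genes (97.8%).

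Counts were normalized by TMM and compared with edgeR 4.0.16 (R 4.3.3, quasi-likelihood F test, no other term than genotype) after filterByExpr (minimum count 10, minimum total 15). P-values were adjusted by the Benjamini-Hochberg method over 13168 genes. The SE is the log2 fold change over the square root of F. Between 12016242 and 20023108 reads per library limit the precision for genes with few reads such as Pck2. Ratios of FPKM were compared by an exact two-sided permutation test. FPKM are not scaled by TMM, so genotypes were tested on counts with TMM, and FPKM of the genotypes are given only as values or as ratios within a mouse. Alternatives were other scalings, no filter, DESeq2 1.42.0, apeglm 1.24.0, limma 3.58.1 on log2(FPKM + 1) and log2(FPKM + 0.1), a replicate block, mouse-number series as a covariate, leaving out each mouse, and the mice in the 800s only, which was added after the data were seen. The fits were tested on simulated data. Near-identical transcripts were sought with blastn from BLAST 2.17.0.

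The 10 genes and the gene lists were chosen with earlier results of these data known. The text names all 10 members and Pcx. Of each pathway list it names the genes called if 6 or fewer, otherwise the 3 highest and 3 lowest. For 4 members it names the 3 genes with the highest r over mice. Eno1b, Eno2, Pgk2, G6pc2, Iffo1, Spsb2 and Gm10876 fall outside this rule and were named after their values were seen. Promoter windows from RefSeq (GRCm38.p6) were found for all 10 genes. Protein sequences, metabolites, proteomic data and Western blots are not analysed here, and 1 listed gene is not reported here.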

Additional observations from a re-analysis of the deposited data

Results flagged for a closer look

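In 26 groups of 4 mice (10 genes, their ratios in FPKM within a mouse, in each genotype) the highest and lowest mouse were compared with the other 3, and chance gives such a gap in about 1 in 20 groups. In 3 groups a mouse stood outside the others by more than Dixon's critical value for groups of 4, and each time it was Pcx L-/- replicate 1. For Fbp1 it had 17285.7 normalized reads beside 7653 to 8939 in the other Pcx L-/- mice. For Eno1 it had 9250.04 beside 6518 to 6669, and for Gapdh 20449.5 beside 14987 to 15729. In each case its value was nearer to the control mean than to the mean of the other 3 Pcx L-/- mice. Its Pcx count was 758 normalized reads, beside 556 to 732 in the other Pcx L-/- mice and 14371 to 22059 in the controls.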

How the results depend on the processing

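Direction was the same in all 18 other settings for 9 of the 10 genes. For Gapdh, counted among these, it rested on values near 0 in some settings. Its log2 fold change was -0.008 ± 0.124 (SE) under library size only. With limma it was -0.00066 ± 0.13 on log2(FPKM + 1) and -0.00065 ± 0.13 on log2(FPKM + 0.1). Pgk1 was positive under library size only (0.19) and with limma on log2(FPKM + 1) (0.19) and log2(FPKM + 0.1) (0.19), settings in which the median of all genes moved to 0.28, 0.18 and 0.27. Under library size only the calls over all genes were 3915 higher and 870 lower beside 1855 and 1777, and with limma they were 3822 and 823, or 3779 and 822. DESeq2 called 1955 higher and 2031 lower of 14572 genes, and edgeR with a replicate block called 1481 higher and 1494 lower of 13168. The calls for Pck2, G6pc3 and Slc37a4 were made in every setting, and 2 genes were called higher in each. The number called lower was 4, and it was 2 with limma at either pseudocount, 3 under library size only, 6 with DESeq2 and 7 among the mice in the 800s, an alternative added after the data were seen. With single mice left out it ranged from 1 to 6, and was 1 without Pcx L-/- replicate 2, 3 or 4 and 2 without control replicate 1 or 3. Those fits have fewer samples, and calls over all genes then ranged from 2109 without Pcx L-/- replicate 4 to 4602 without Pcx L-/- replicate 1. Same-numbered mice did not deviate together (r of -0.131 to 0.101 over genes), and a replicate block gave 3 lower and 2 higher, losing G6pc (edgeR adjusted p = 0.0841). With the block, the ratio of Pck2 to Pck1 had an exact p of 0.125 at 1.68 and that of G6pc3 to G6pc 0.125 at 1.87, the smallest p that 4 pairs allow. Among the mice in the 800s these log2 ratios were 1.97 and 2.38, with an exact p of 0.1, the smallest for 2 against 3. With single mice left out the log2 ratio of Pck2 to Pck1 ranged from 1.51 to 1.89, that of G6pc3 to G6pc from 1.52 to 2.30 (exact permutation p of 0.0571 without any 1 Pcx L-/- mouse) and that of Slc37a4 to G6pc from -0.51 to 0.12, above 0 without control replicate 2 (0.12) or Pcx L-/- replicate 2 (0.03). The causes of these changes were not tested. Nothing in the labels says that the mice of a group came from separate litters, so p-values measure the spread between these mice only. The precision for Pck2 is limited by its 56 to 244 reads per library.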
